A study of Mus musculus with 12 samples.

Results

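The genes described here are 32 mouse genes of the response to low oxygen and of glucose breakdown: the transcription factor subunit Hif1a with the proteins that sense oxygen for it, glucose and lactate transporters, the enzymes of glycolysis, and other targets of the HIF factors. They were chosen by name from a list of this pathway, with earlier results of these data known. All 32 symbols were found among the 55401 genes of the files. Their RNA was measured in 12 libraries of CD4 T cells sorted from spleen. In 6 libraries the cells carried LAG-3 and CXCR5 with low or intermediate PD-1 (called TLCP here), and in the other 6 they were T follicular helper cells (Tfh) with CXCR5 and high PD-1, most of them from germinal centres. All libraries came from C57BL/6 mice infected with Leishmania donovani, a protozoan parasite that lives in macrophages, and harvested on day 21. No uninfected or naive library was analysed here, so each value compares 2 populations of infected mice. The study asked how TLCP cells differ from Tfh cells, since both carry several of the same markers.

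HIF-1 is a heterodimer whose alpha subunit, encoded by Hif1a, is made continuously and destroyed when oxygen is present. Prolyl hydroxylases such as those encoded by Egln1 and Egln3 mark it, and the VHL ubiquitin ligase then sends it to the proteasome. When it escapes, it binds short DNA elements near genes for glucose uptake, glycolysis, lactate export and mitophagy. In activated T cells it can also build up with oxygen present, and germinal centres can be poor in oxygen. RNA levels of Hif1a say nothing of the amount of its protein.

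The libraries differed in 2 ways beside the sort: those of mice 1 to 3 stood apart from those of mice 4 to 6, and TLCP libraries held more RNA of B cells and some other cells, with values given after the members.

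In TLCP, 15 of the 31 members tested were lower than in Tfh, 2 were higher and 14 did not pass the test (edgeR, adjusted p under 0.05). In bulk RNA, fewer cells of a type and less RNA per cell cannot be told apart. Among all 12015 genes tested, 16.4% were lower, 16.8% were higher and 33.2% were called in either direction. Because the list was chosen with earlier results of these data known, its counts beside these shares are no independent evidence. The median log2 fold change (TLCP minus Tfh) was -0.29 over the 31 members and -0.004 over all genes. The size of this shift depends on how libraries are scaled: with library totals alone the medians were -0.11 and 0.17, and on deposited TPM they were -0.01 and 0.25. Under those scalings 8 and 5 members were lower, beside 7.43% and 3.71% of all genes, and 2 and 3 were higher, beside 26.7% and 24.9%. At least 2-fold lower were 4 members (3.17% of all genes), and at least 2-fold higher was 1 (6.57%). Hif1a, Egln3, Bnip3 and Ddit4 were lower and Slc2a3 was higher under every alternative in which they could be fitted, while most calls near -0.3 on the log2 scale were lost under those same 2 scalings. All 17 called members moved the same way in 6 of 6 pairs of same-numbered libraries. Equal numbers were treated as 1 mouse in this count, although the data do not settle every pair. The edgeR fit itself did not pair them. The 17 were called from these same libraries, so this is no independent support. The CPM ranges of the populations did not overlap for 9 of the lower and 1 of the higher members, against 8.86% and 8.3% of all genes.

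**Figure D1:**
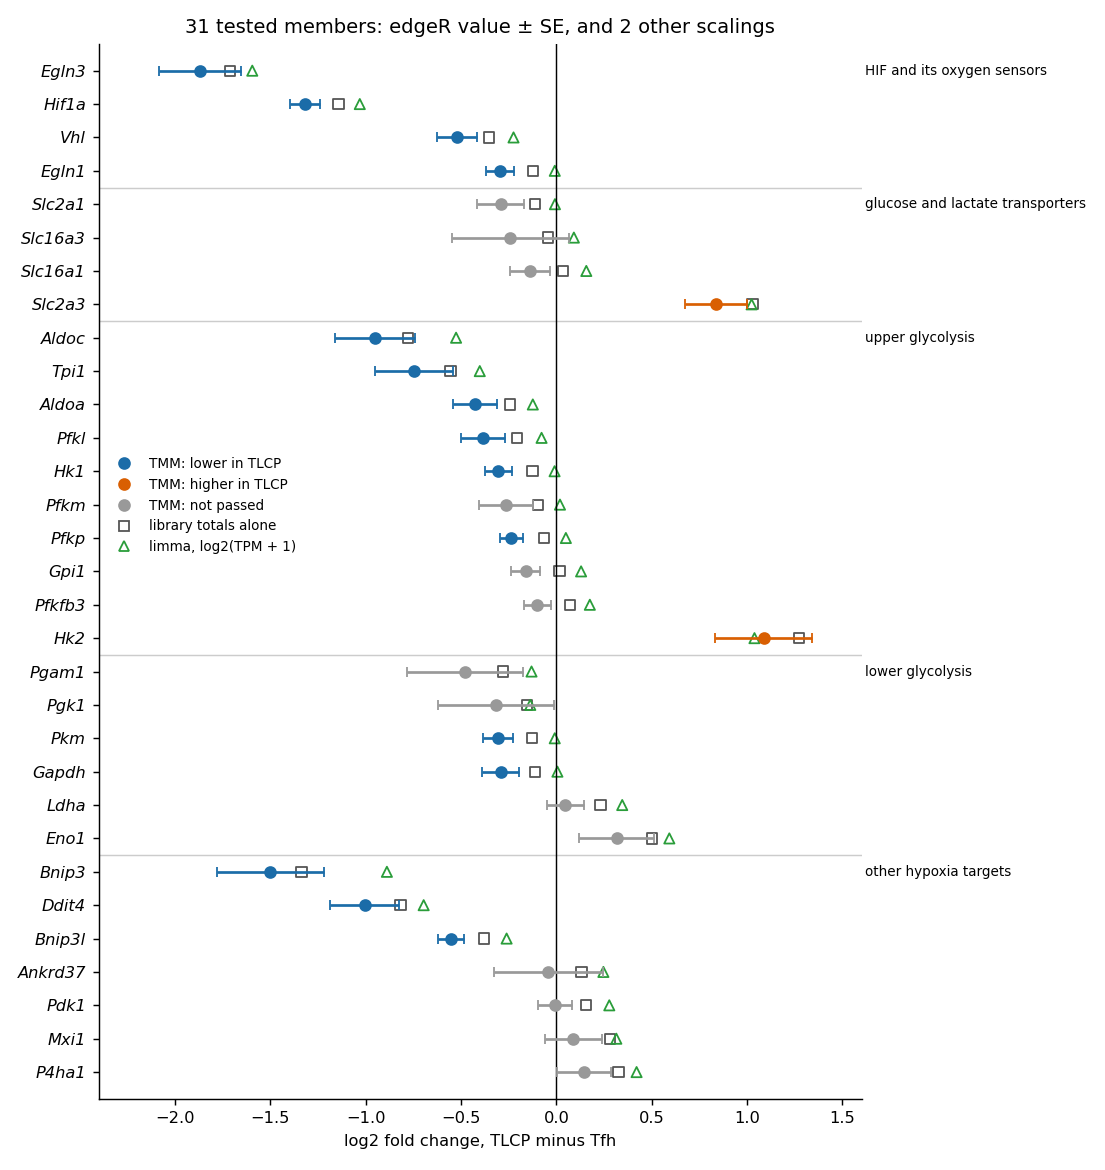
Log2 fold change (TLCP minus Tfh, x axis) of each of the 31 members tested, grouped by role, from edgeR with TMM scaling (filled points with SE) and under 2 other scalings (open marks, library totals alone and TPM). Hif1a, Egln3, Bnip3 and Ddit4 lie below -1, Slc2a3 and Hk2 lie above 0.8, and most glycolytic enzymes lie between -0.5 and 0. Of these enzymes, Gpi1, Pfkm, Pfkfb3, Pfkp and Gapdh change sign on the TPM scale.

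All 4 genes of the oxygen-sensing arm were lower in TLCP, beside 16.4% of all genes. With library totals alone 3 of them were called lower and on TPM 2, beside 7.43% and 3.71% of all genes. Hif1a lies at chr12:73901375-73947530 (GRCm38, plus strand). It ranged from 486 to 609 CPM (median 594) in TLCP and from 1270.2 to 1661 CPM (median 1384) in Tfh. Every TLCP library lay below every Tfh library, with a wide gap between the groups. The means were 563 ± 58.9 CPM in TLCP and 1405 ± 139 CPM in Tfh (SD, n = 6), a 2.50-fold lower level in TLCP (log2 fold change -1.32, SE 0.079, adjusted p = 2.7e-10), and 16 of the 12015 genes had a smaller p. The authors' deposited table gives a log2 fold change of -1.31 for it. Per length of transcript, Hif1a was at 251 ± 40.2 TPM in TLCP and 513 ± 82.6 TPM in Tfh (SD, n = 6). By mean TPM it stood at rank 69 of all genes in Tfh and at rank 253 in TLCP.

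Egln3 (chr12:54178981-54203860) encodes a prolyl hydroxylase that is itself a well-known HIF target. It ranged from 14.2 to 36.3 CPM (median 23.2) in TLCP and from 71.3 to 105 CPM (median 84.0) in Tfh. Again no library of one population reached the other, and the means were 23.9 ± 8.43 CPM in TLCP and 87.2 ± 13.3 CPM in Tfh (SD, n = 6; log2 fold change -1.87, SE 0.21, adjusted p = 3.7e-05). Within TLCP the values split by mouse: 28.0 to 36.3 CPM in mice 1 to 3 and 14.2 to 18.4 CPM in mice 4 to 6. Within either set of mice Egln3 was lower in TLCP, with log2 fold changes of -1.60 in mice 1 to 3 and -2.26 in mice 4 to 6.

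Egln1, the main prolyl hydroxylase of most tissues, differed much less. It ranged from 48.4 to 57.2 CPM (median 56.2) in TLCP and from 59.1 to 72.8 CPM (median 66.0) in Tfh. The groups lay side by side without overlap (log2 fold change -0.30, SE 0.074, adjusted p = 0.00393), but the call was lost with library totals alone (log2 fold change -0.12) and on TPM (-0.01). Vhl, the substrate receptor of the ubiquitin ligase, ranged from 15.4 to 21.5 CPM (median 18.2) in TLCP and from 23.9 to 29.4 CPM (median 25.5) in Tfh. It was lower in all TLCP libraries (log2 fold change -0.52, SE 0.10, adjusted p = 0.00067), and on TPM the difference was -0.22 and did not pass.

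**Figure D2:**
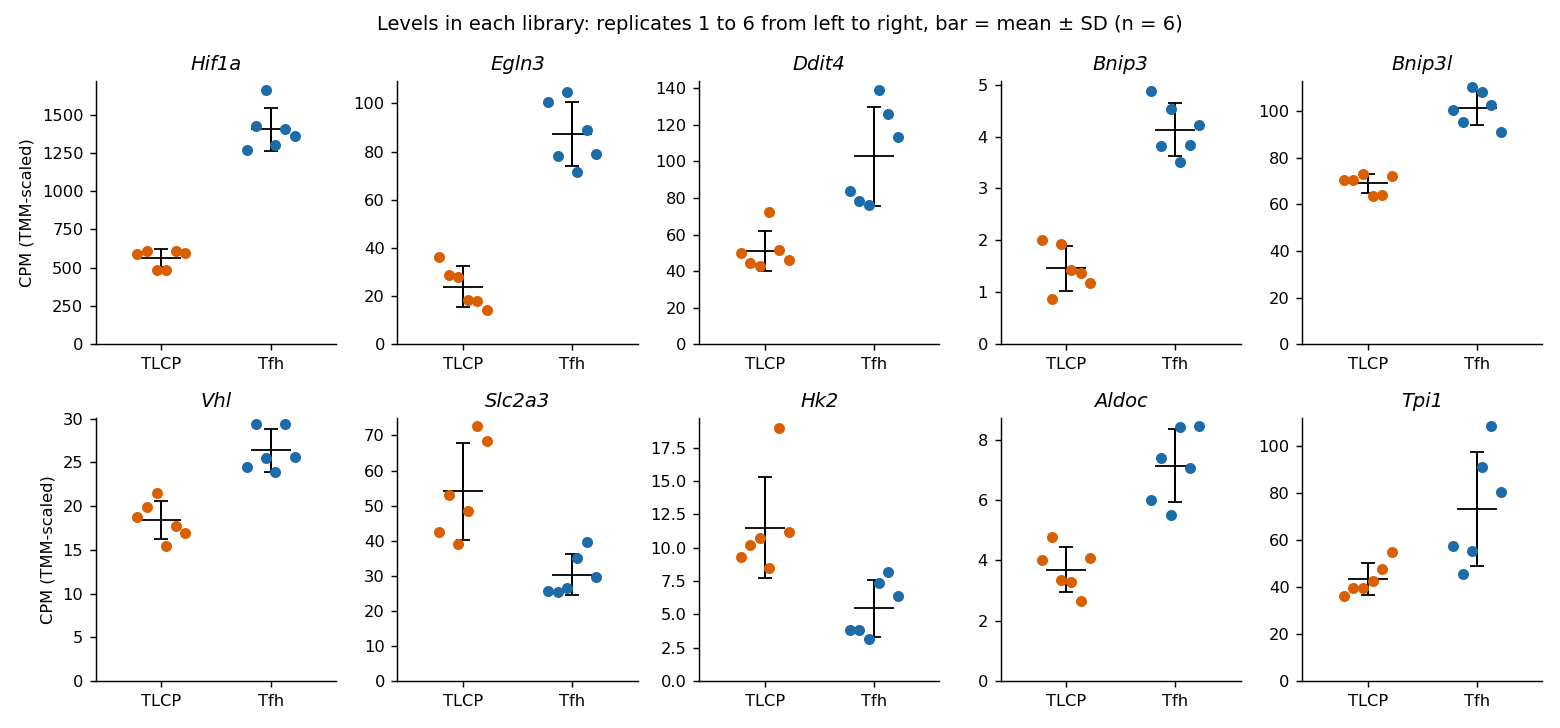
TMM-scaled CPM (linear axes from 0) of 10 members with adjusted p under 0.05, 1 point a library, with mean ± SD (n = 6). Hif1a, Egln3, Bnip3 and Ddit4 form separate groups with TLCP low, Hk2 separates with TLCP high, and the Slc2a3 ranges meet between 39.0 and 39.7 CPM.

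Of the other targets of HIF, 3 of 7 tested were lower and 0 were higher by edgeR (0 at an unadjusted p under 0.05, and 0 by DESeq2 or limma voom). Over all genes 16.4% were lower and 16.8% higher. With library totals alone 3 of these targets were lower and on TPM 2, beside 7.43% and 3.71% of all genes. Bnip3 (chr7:138890836-138909519) encodes a mitophagy receptor of the outer mitochondrial membrane. It was a low-level gene and ranged from 0.87 to 2.002 CPM (median 1.40) in TLCP and from 3.50 to 4.87 CPM (median 4.03) in Tfh. Its groups did not overlap (log2 fold change -1.50, SE 0.28, adjusted p = 0.00037). Bnip3l, its paralogue, ranged from 63.6 to 73.3 CPM (median 70.6) in TLCP and from 91.2 to 111 CPM (median 102) in Tfh. It too was lower in every TLCP library (log2 fold change -0.55, SE 0.069, adjusted p = 4.1e-06), although the TPM difference of -0.26 did not pass.

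Ddit4 (chr10:59949669-59951834) encodes REDD1, a stress-induced inhibitor of mTORC1. It ranged from 42.9 to 72.1 CPM (median 47.9) in TLCP and from 76.3 to 139 CPM (median 98.5) in Tfh. The highest TLCP library stayed under the lowest Tfh library, and the means were 51.1 ± 10.8 CPM in TLCP and 103 ± 26.9 CPM in Tfh (SD, n = 6; log2 fold change -1.01, SE 0.18, adjusted p = 0.00097).

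The remaining targets did not pass. Ankrd37, an ankyrin repeat gene, was at 2.96 ± 0.463 CPM in TLCP and 3.04 ± 1.06 CPM in Tfh (SD, n = 6; log2 fold change -0.04, adjusted p = 0.928). P4ha1, a collagen prolyl hydroxylase subunit, was at 31.8 ± 5.25 CPM in TLCP and 28.7 ± 6.21 CPM in Tfh (SD, n = 6; log2 fold change 0.14, adjusted p = 0.475), and Mxi1, a MYC antagonist, at 19.7 ± 4.60 CPM in TLCP and 18.6 ± 3.08 CPM in Tfh (SD, n = 6; log2 fold change 0.09, adjusted p = 0.68). All 3 had wholly or largely overlapping libraries. Pdk1, the kinase that shuts the pyruvate dehydrogenase complex, was at 111 ± 11.6 CPM in TLCP and 111 ± 14.1 CPM in Tfh (SD, n = 6; log2 fold change -0.006, adjusted p = 0.971). Vegfa, an angiogenic growth factor, was below the count filter, with 0.361 to 3.14 CPM in TLCP and 0.0885 to 0.992 CPM in Tfh, where 3 counts correspond to 0.236 to 0.432 CPM.

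HIF binds DNA at a short core, ACGTG or GCGTG, which was searched on both strands of 300-base windows from 250 bases before to 50 bases after each RefSeq gene start (GRCm38.p6). CACGTG, the E-box that MYC and its relatives bind, contains ACGTG and was not separated from it. Windows of the 3 targets with the largest falls in TLCP, of Hk2 that was higher, and of Ldha that did not pass the test are shown so that genes with unlike values can be read side by side. Capitals mark the core on either strand, and each sequence runs from 5′ to 3′ on the strand of the gene.
Egln3, chr12:54203825-54204124, minus strand: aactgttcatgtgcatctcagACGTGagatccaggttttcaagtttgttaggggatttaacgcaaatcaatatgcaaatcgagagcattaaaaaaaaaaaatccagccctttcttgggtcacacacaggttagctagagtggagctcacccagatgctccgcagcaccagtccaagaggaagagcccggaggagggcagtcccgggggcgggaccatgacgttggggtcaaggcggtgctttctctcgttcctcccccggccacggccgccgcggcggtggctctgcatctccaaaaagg
Bnip3, chr7:138909457-138909756, minus strand: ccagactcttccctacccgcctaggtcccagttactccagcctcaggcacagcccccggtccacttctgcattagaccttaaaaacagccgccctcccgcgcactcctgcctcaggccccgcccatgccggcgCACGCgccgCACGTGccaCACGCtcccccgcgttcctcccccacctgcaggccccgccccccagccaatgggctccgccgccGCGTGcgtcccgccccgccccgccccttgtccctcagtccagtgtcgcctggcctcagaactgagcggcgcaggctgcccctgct
Ddit4, chr10:59951721-59952020, minus strand: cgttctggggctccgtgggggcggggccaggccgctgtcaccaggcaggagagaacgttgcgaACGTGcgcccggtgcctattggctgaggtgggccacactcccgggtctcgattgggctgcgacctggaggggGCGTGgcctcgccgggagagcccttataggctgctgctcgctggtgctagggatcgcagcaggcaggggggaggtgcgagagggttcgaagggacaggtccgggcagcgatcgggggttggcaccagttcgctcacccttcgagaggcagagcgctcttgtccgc
Hk2, chr6:82774405-82774704, minus strand: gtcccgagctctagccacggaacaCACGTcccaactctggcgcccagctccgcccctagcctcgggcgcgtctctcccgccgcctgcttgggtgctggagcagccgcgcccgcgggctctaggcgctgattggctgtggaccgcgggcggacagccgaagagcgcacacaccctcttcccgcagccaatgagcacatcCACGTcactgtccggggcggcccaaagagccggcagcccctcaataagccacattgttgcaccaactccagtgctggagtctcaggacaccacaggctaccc
Ldha, chr7:46845554-46845853, plus strand: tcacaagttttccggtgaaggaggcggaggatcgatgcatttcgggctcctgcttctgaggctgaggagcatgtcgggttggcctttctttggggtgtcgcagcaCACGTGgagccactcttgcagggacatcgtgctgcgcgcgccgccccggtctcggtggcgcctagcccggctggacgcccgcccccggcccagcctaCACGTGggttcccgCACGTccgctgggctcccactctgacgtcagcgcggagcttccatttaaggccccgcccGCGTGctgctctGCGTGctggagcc
Overlapping cores counted as 1 site, the Egln3 window held 1 site, Bnip3 held 4, Ddit4 and Hk2 held 2 each and Ldha held 5. Ldha has a second window, chr7:46846832-46847131, which held 2 sites and is not shown. Whether the number of sites goes with the fold change was not tested. Hif1a itself had 2 sites, Egln1 and Slc2a1 had 2 each, and Vhl, Tpi1 and Gpi1 had 0. Of 29 tested members with a window, 26 held at least 1 core (89.7%), against 68% of the 8943 tested genes with a window. At least 2 sites stood in 75.9% of those members and 35.1% of those genes. Many of these genes are known HIF targets, so the shares describe the list and are no independent evidence. A match is a match of letters, and binding was not measured.

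Of the 4 transporters, 1 was higher in TLCP and 0 were lower by edgeR (1, Slc2a1, at an unadjusted p under 0.05, and 0 by DESeq2 or limma voom). Over all genes 16.8% were higher and 16.4% lower. Slc2a3 (chr6:122727809-122801640) encodes GLUT3, a glucose transporter with high affinity. It ranged from 39.0 to 72.6 CPM (median 50.8) in TLCP and from 25.4 to 39.7 CPM (median 28.1) in Tfh. All 6 TLCP libraries exceeded the Tfh library of the same number, and only the lowest TLCP value fell within the Tfh range. The means were 54.0 ± 13.8 CPM in TLCP and 30.3 ± 5.82 CPM in Tfh (SD, n = 6; log2 fold change 0.84, SE 0.16, adjusted p = 0.001). Slc2a1, which encodes the widespread transporter GLUT1, ranged from 15.0 to 21.4 CPM (median 16.1) in TLCP and from 16.4 to 23.4 CPM (median 21.6) in Tfh. It overlapped and did not pass (log2 fold change -0.29, SE 0.12, adjusted p = 0.0729), though it was called lower without TLCP replicate 6 (-0.38) and without Tfh replicate 3 (-0.36). The lactate transporters did not pass either. Slc16a1, which encodes MCT1, was at 33.2 ± 2.02 CPM in TLCP and 36.5 ± 6.56 CPM in Tfh (SD, n = 6; log2 fold change -0.14, adjusted p = 0.347), and Slc16a3, which encodes MCT4, was at 3.91 ± 0.838 CPM in TLCP and 4.65 ± 2.36 CPM in Tfh (SD, n = 6; log2 fold change -0.24, adjusted p = 0.588).

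Among the 10 members of upper glycolysis, 1 was higher and 6 were lower in TLCP, beside 16.8% and 16.4% of all genes. With library totals alone 2 were lower and on TPM 1, beside 7.43% and 3.71% of all genes. Hk2 (chr6:82725025-82774454) encodes the inducible hexokinase, which traps glucose in the cell. It ranged from 8.48 to 18.9 CPM (median 10.5) in TLCP and from 3.15 to 8.18 CPM (median 5.10) in Tfh. Every TLCP library was above every Tfh library, with TLCP replicate 5 far above the other 5 TLCP libraries. The means were 11.5 ± 3.79 CPM in TLCP and 5.44 ± 2.12 CPM in Tfh (SD, n = 6), a 2.12-fold higher level in TLCP (log2 fold change 1.09, SE 0.25, adjusted p = 0.00236). In mice 4 to 6 alone the difference was 0.81 (adjusted p = 0.0625, the highest over all alternatives, which began at 0.00011). Hk1, the constitutive hexokinase and much the more abundant, ranged from 148 to 162 CPM (median 158) in TLCP and from 173 to 234 CPM (median 188) in Tfh. It moved the other way without overlap (log2 fold change -0.30, SE 0.070, adjusted p = 0.00219), and this call was lost with library totals alone (-0.13) and on TPM (-0.01).

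The enzymes that split the sugar and interconvert the products were also lower. Tpi1, triosephosphate isomerase, ranged from 36.3 to 55.0 CPM (median 41.2) in TLCP and from 45.7 to 108 CPM (median 68.8) in Tfh (log2 fold change -0.75, SE 0.20, adjusted p = 0.0148). Its ranges overlapped, and the Tfh libraries spread widely. Aldoa, the main aldolase, ranged from 135 to 184 CPM (median 161) in TLCP and from 172 to 279 CPM (median 215) in Tfh (log2 fold change -0.42, SE 0.11, adjusted p = 0.00994). Aldoc, a minor aldolase best known from brain, ranged from 2.65 to 4.79 CPM (median 3.68) in TLCP and from 5.51 to 8.45 CPM (median 7.24) in Tfh and separated without overlap (log2 fold change -0.95, SE 0.21, adjusted p = 0.00151). For Aldoa the call was lost with library totals alone (-0.24) and on TPM (-0.12), and for Tpi1 on TPM (-0.40).

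Phosphofructokinase commits the sugar to glycolysis and is built from 3 kinds of subunit. The liver type Pfkl ranged from 23.5 to 30.3 CPM (median 27.9) in TLCP and from 27.9 to 43.4 CPM (median 35.3) in Tfh (log2 fold change -0.38, SE 0.11, adjusted p = 0.0134). The platelet type Pfkp, the most abundant of the 3 per length, ranged from 169 to 201 CPM (median 186) in TLCP and from 201 to 240.5 CPM (median 215) in Tfh (log2 fold change -0.24, SE 0.060, adjusted p = 0.00484). For Pfkl 3 of 6 TLCP libraries lay above the lowest Tfh library, and for Pfkp only the highest TLCP library did. Both were lower in TLCP with TMM scaling, but neither passed on TPM, where Pfkl stood at -0.08 and Pfkp turned to 0.05. With library totals alone the values were -0.21 and -0.06. The muscle type Pfkm was at 11.2 ± 1.42 CPM in TLCP and 13.5 ± 1.84 CPM in Tfh (SD, n = 6) and did not pass (log2 fold change -0.27, adjusted p = 0.16). Pfkfb3, which makes the activator of phosphofructokinase, was at 52.3 ± 2.80 CPM in TLCP and 56.1 ± 3.20 CPM in Tfh (SD, n = 6; log2 fold change -0.10, adjusted p = 0.293). The phosphoglucose isomerase Gpi1 did not pass at 177 ± 12.7 CPM in TLCP and 198 ± 24.2 CPM in Tfh (SD, n = 6; log2 fold change -0.16, adjusted p = 0.119), but it was called lower without Tfh replicate 2 (-0.21).

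In lower glycolysis 2 of 6 members were lower, beside 16.4% of all genes. With library totals alone and on TPM 0 were lower, beside 7.43% and 3.71% of all genes. Pkm, pyruvate kinase, ranged from 344 to 386 CPM (median 353) in TLCP and from 367 to 518 CPM (median 449.6) in Tfh (log2 fold change -0.31, SE 0.077, adjusted p = 0.00456). Gapdh, often used as a reference gene, ranged from 52.1 to 69.5 CPM (median 60.2) in TLCP and from 55.8 to 87.1 CPM (median 75.5) in Tfh (log2 fold change -0.29, SE 0.098, adjusted p = 0.0267). Both overlapped between populations, and neither call held with library totals alone (-0.13 and -0.11) or on TPM, where Pkm stood at -0.01 and Gapdh turned to 0.0055. The Gapdh call was also lost when TLCP replicate 2 (-0.26), TLCP replicate 3 (-0.28), Tfh replicate 5 (-0.24) or Tfh replicate 6 (-0.26) was left out.

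Ldha, the lactate dehydrogenase subunit that turns pyruvate into lactate and a classic HIF target, ranged from 215 to 279 CPM (median 241) in TLCP and from 184 to 286 CPM (median 234) in Tfh. The populations overlapped almost wholly (log2 fold change 0.05, SE 0.099, adjusted p = 0.751), although it was called higher in TLCP in mice 1 to 3 alone (0.21). Eno1, an enolase, ranged from 30.6 to 50.4 CPM (median 37.3) in TLCP and from 22.4 to 47.6 CPM (median 29.4) in Tfh and did not pass (log2 fold change 0.32, SE 0.20, adjusted p = 0.249), yet it was higher in TLCP in 6 of 6 pairs. With the mouse as a block it passed (0.34, adjusted p = 0.0123; over all alternatives the adjusted p ran from 0.00254 to 0.615). On TPM it was also called higher (0.59, limma adjusted p = 0.0177). Pgk1, a phosphoglycerate kinase, ranged from 1.20 to 7.93 CPM (median 4.72) in TLCP and from 4.42 to 6.46 CPM (median 5.96) in Tfh and did not pass (log2 fold change -0.32, adjusted p = 0.459). Its TLCP libraries lay on both sides of the narrow Tfh range. Pgam1, a phosphoglycerate mutase, was at 3.10 ± 1.05 CPM in TLCP and 4.35 ± 1.93 CPM in Tfh (SD, n = 6; log2 fold change -0.48, adjusted p = 0.244).

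Several of these enzymes have processed copies elsewhere in the genome, and reads that match more than 1 place were not counted for any gene. Of all 50-base stretches in the transcripts of a gene, the share also found in transcripts of other genes was 68% for Pgk1, 59.1% for Bnip3, 58.4% for Gapdh, 49.5% for Eno1, 41.5% for Pgam1, 24.5% for Gpi1, 24.4% for Bnip3l and 23.7% for Pkm. It was 0% for Egln3, Slc2a3 and Hk2. The counted level of Pgk1 was 5.24 ± 2.32 TPM in TLCP and 5.44 ± 1.35 TPM in Tfh (SD, n = 6), far below that of Pkm at 189 ± 22.9 TPM in TLCP and 190.4 ± 25.9 TPM in Tfh, in a pathway where both act in series. Levels of the genes with large shares are therefore uncertain and their order per length is not read here. How far this touched the fold changes was not tested.

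**Figure D3:**
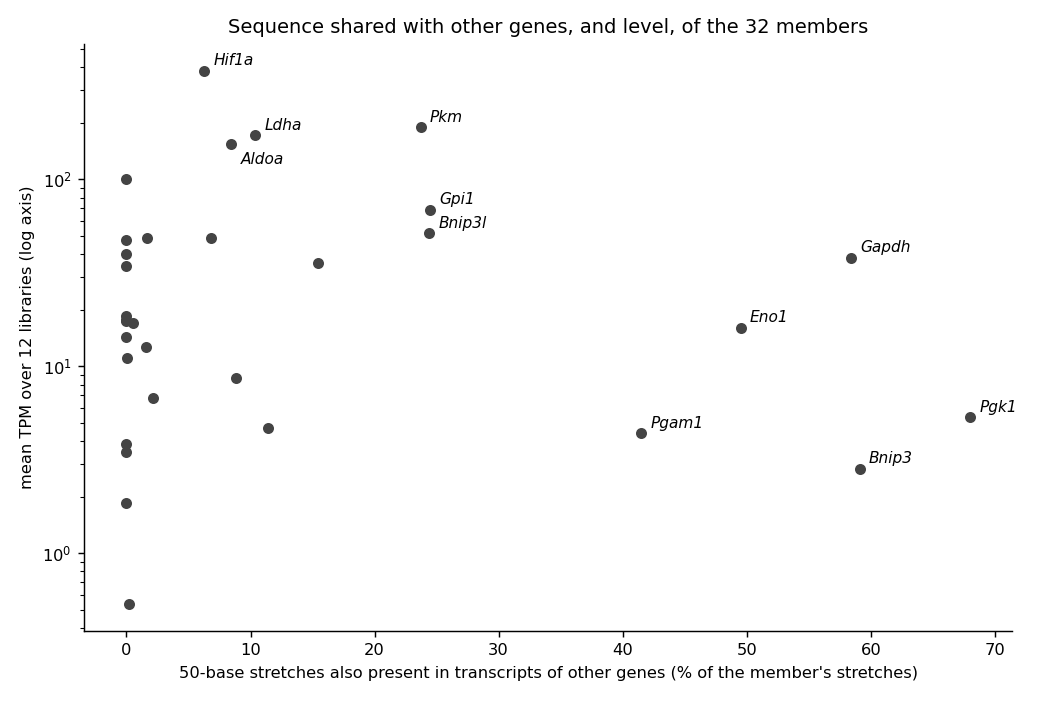
Mean TPM over 12 libraries (log axis) of each of the 32 members against the share of its 50-base transcript stretches that also occur in transcripts of other genes (percent, GENCODE M21). Pgk1, Bnip3, Gapdh and Eno1 stand farthest right, at 49.5% to 68%.

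Among members whose shared share was small, the order per length in Tfh was Hif1a, then Aldoa (160.2 ± 24.3 TPM) and Ldha (151 ± 20.7 TPM), then Ddit4 (124 ± 24.1 TPM) and Egln3 (71.3 ± 19.2 TPM). Aldoa and Ldha did not differ beyond their spread. In TLCP the corresponding order was Hif1a, Ldha (194 ± 34.4 TPM), Aldoa (147 ± 25.7 TPM) and Ddit4 (76.7 ± 19.9 TPM), with Egln3 at 23.3 ± 8.15 TPM. Hif1a in TLCP ranged from 185 to 296 TPM, so it overlapped the Ldha range of 145 to 247 TPM. In Tfh the lowest Hif1a library (416 TPM) was above the highest Aldoa library (198 TPM).

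Because related genes were counted in the same library, the balance between them does not depend on how libraries are scaled. For 10 pairs of genes this was compared by the log2 ratio within each library, with p adjusted over the 10 pairs. The permutation took the 12 libraries as independent and did not pair those of equal number. The smallest exact p is then 0.00216, whereas with libraries paired by number it is 0.03125. Shares are per length, from the deposited TPM.

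Slc2a3 made up 60.1% ± 4.95 (SD, n = 6) in TLCP and 41.2% ± 3.88 (SD, n = 6) in Tfh of the summed level of both glucose transporters (difference of the mean log2 ratios 1.11, exact 2-sided permutation p = 0.00216, adjusted p = 0.00433). The libraries spanned 55.7% to 69.3% in TLCP and 34.4% to 45.2% in Tfh, so GLUT3 was the larger part in every TLCP library and the smaller part in every Tfh library. Hk2 made up 9.36% ± 2.59 (SD, n = 6) in TLCP and 3.76% ± 1.09 (SD, n = 6) in Tfh of both hexokinases (difference of the mean log2 ratios 1.41, exact 2-sided permutation p = 0.00216, adjusted p = 0.00433). Its share ran over 6.96% to 14.3% in TLCP and 2.53% to 5.11% in Tfh, and Hk1 remained the bulk of hexokinase RNA in both.

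Egln3 made up 36.5% ± 8.33 (SD, n = 6) in TLCP and 63.7% ± 2.29 (SD, n = 6) in Tfh of both prolyl hydroxylases (difference of the mean log2 ratios -1.63, exact 2-sided permutation p = 0.00216, adjusted p = 0.00433). It was the larger part in every Tfh library and the smaller part in every TLCP library (25.4% to 46.3% in TLCP and 61.8% to 67.1% in Tfh). Ldhb, the lactate dehydrogenase subunit that favours the reverse reaction and is no member of the list, made up 6.65% ± 2.35 (SD, n = 6) in TLCP and 12.9% ± 1.45 (SD, n = 6) in Tfh of both subunits (difference of the mean log2 ratios -1.13, exact 2-sided permutation p = 0.00216, adjusted p = 0.00433). The share was lower in 6 of 6 TLCP libraries, while Ldha itself did not pass the test.

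Bnip3l made up 96.5% ± 0.958 (SD, n = 6) in TLCP and 93.5% ± 0.874 (SD, n = 6) in Tfh of both mitophagy receptors (difference of the mean log2 ratios 0.99, exact 2-sided permutation p = 0.00216, adjusted p = 0.00433), and this call was lost with counts of both strands, where the difference was 0.75. Both genes share stretches with other genes, 59.1% of them for Bnip3 and 24.4% for Bnip3l, so these shares are of counted reads and no balance of the transcripts is read from them. Pdk3, an isozyme outside the list, made up 46.1% ± 2.90 (SD, n = 6) in TLCP and 53.2% ± 4.46 (SD, n = 6) in Tfh of Pdk3 plus Pdk1 (difference of the mean log2 ratios -0.41, exact 2-sided permutation p = 0.00649, adjusted p = 0.0108). For Aldoc to Aldoa the difference was -0.55 (exact 2-sided permutation p = 0.026, adjusted p = 0.0371), and the call was lost in 8 of 12 cases when 1 library was left out (TLCP replicates 3, 4, 5 or 6, or Tfh replicates 1, 2, 4 or 6), with values from -0.55 to -0.42. The balance of Pfkp to Pfkl (difference 0.14, exact permutation p = 0.288), of Pfkm to Pfkl (0.11, exact p = 0.574) and of Slc16a3 to Slc16a1 (0.00807, exact p = 0.974) did not pass. With mice paired, Pfkp to Pfkl passed (adjusted exact p = 0.0391), with the ratio higher in TLCP in 6 of 6 pairs. The smallest unadjusted exact p that 6 pairs allow is 0.03125, and any ratio on 1 side in all pairs receives it.

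**Figure D4:**
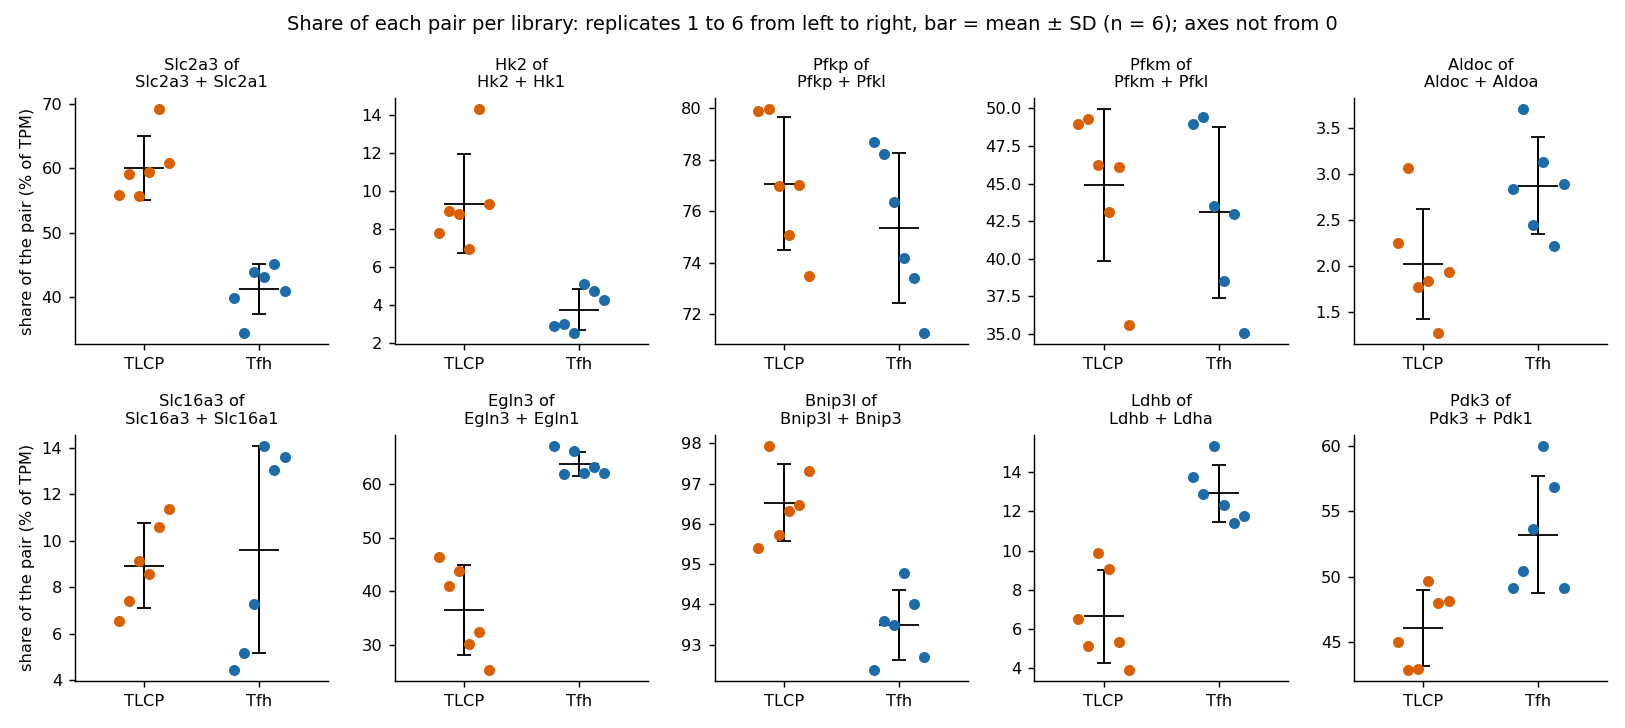
Share of the first gene in the summed TPM of a pair of related genes (percent), 1 point a library, for TLCP and Tfh. Axes do not start at 0. Slc2a3 and Hk2 take larger shares and Egln3 and Ldhb smaller shares in every TLCP library than in any Tfh library.

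The replicate numbers mark 2 sets of mice, 1 to 3 and 4 to 6, which differed in RNA although no label names a batch. In Tfh, 13 of the 31 members tested were higher in all of mice 4 to 6 than in any of mice 1 to 3, against 13.9% of all genes, and 1 was lower, against 14.8%. The 13 were Slc2a3, Slc16a3, Hk1, Hk2, Gpi1, Pfkl, Aldoa, Tpi1, Gapdh, Eno1, Pkm, Ldha and Ddit4, most of them enzymes of glycolysis. Tpi1 in Tfh, for example, was at 45.7 to 57.3 CPM in mice 1 to 3 and 80.3 to 108 CPM in mice 4 to 6, and Ldha in Tfh was at 184 to 211 CPM in mice 1 to 3 and 258 to 286 CPM in mice 4 to 6. Hif1a did not separate there, at 1270.2 to 1661 CPM in mice 1 to 3 and 1302 to 1409 CPM in mice 4 to 6.

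Some markers of other cells separated the same sets in Tfh. The summed level of 8 neutrophil markers was 0.478 to 4.69 CPM in mice 1 to 3 and 39.3 to 48.8 CPM in mice 4 to 6, and 5 of the 8 separated the sets. Of 6 plasma cell markers 5 separated (80.6 to 160 CPM against 194 to 249 CPM), and of 13 erythroid and platelet markers 4 did (5.98 to 52.3 CPM against 81.4 to 113 CPM), with Pf4 and Gp1bb at 0 in all Tfh libraries. Of 6 dendritic cell markers 2 separated (0.708 to 1.87 CPM against 2.73 to 7.01 CPM) and of 10 B cell markers 1 did (1215 to 1651 CPM against 1856 to 2275 CPM). This 1 was Ighm, and without it the B cell sums overlapped (316 to 581 CPM against 419 to 921 CPM). Of 5 CD8 and NK cell markers 1 separated, and of 10 macrophage and 6 basophil and mast cell markers 0 did. All of these separated markers were higher in mice 4 to 6. Over all genes the share higher there without overlap was 13.9%. Of 5 T cell markers 1 was higher and 1 lower in mice 4 to 6, and the T cell sums overlapped (3131 to 3427 CPM against 3216 to 3298 CPM). In TLCP, where 1 of 8 neutrophil markers separated, the neutrophil sum was 9.36 to 15.1 CPM in mice 1 to 3 and 5.96 to 53.0 CPM in mice 4 to 6, with Ly6g, Camp and Ngp at 0 in every library. Their part in the members' values was not tested.

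In TLCP fewer of these enzymes separated the sets. Tpi1, Gapdh and P4ha1 were higher in mice 4 to 6 (3 of 31 members, against 8.56% of all genes), and Egln3, Vhl, Slc16a1, Pfkp and Pdk1 were lower (5 of 31, against 9.49%). Ldha in TLCP was at 215 to 246 CPM in mice 1 to 3 and 235 to 279 CPM in mice 4 to 6. Between populations, the log2 fold change of Pkm was -0.17 in mice 1 to 3 and -0.43 in mice 4 to 6, that of Tpi1 -0.46 and -0.96, and that of Ldha 0.21 and -0.10. Hif1a was at -1.37 and -1.28. All 17 called members kept their direction in both sets. They were called from libraries of both sets, so this too is no independent support. Some calls changed with fewer libraries. In mice 1 to 3 alone Eno1 (0.55) and Ldha were called higher in TLCP, and in mice 4 to 6 alone Gpi1 (-0.30) was called lower. Conversely, Aldoc (-0.63), Gapdh (-0.19), Pfkl (-0.25), Pfkp (-0.14) and Pkm did not pass in mice 1 to 3 alone, and Egln1 (-0.26) and Hk2 did not in mice 4 to 6 alone. Whether the sets differ in these fold changes was not tested. Pdk1 was the 1 member apart in both populations together, at 117 to 126 CPM in mice 1 to 3 and 92.5 to 115 CPM in mice 4 to 6 (1.48% of all genes were apart).

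The genes around the members were called in both directions, and no more often than genes at large. Of 90 tested genes on 6 further lists, 10 were higher and 14 lower in TLCP, beside 16.8% and 16.4% of all genes. The counts turned to 16 and 6 with library totals alone, beside 26.7% and 7.43% of all genes. The same shares of all genes stand beside the counts of each list below. The median log2 fold changes of the 6 lists ran from -0.17 to 0.15, with -0.004 over all genes. Of 15 other HIF subunits and regulators, 1 was higher and 2 were lower. Epas1, which encodes the HIF-2 alpha subunit, was at 9.59 ± 4.75 CPM in TLCP and 5.14 ± 0.864 CPM in Tfh (SD, n = 6; log2 fold change 0.91, SE 0.28, adjusted p = 0.0161), and no gene of this list was called higher without TLCP replicate 5. Eloc, a subunit of the VHL ligase (log2 fold change -0.28, adjusted p = 0.0164), and Siah1a, a ubiquitin ligase that acts on prolyl hydroxylases (log2 fold change -0.41, adjusted p = 0.0319), were lower with TMM scaling. Neither was called with library totals alone, on TPM, in mice 4 to 6 alone or without Tfh replicate 3.

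Of 24 other hypoxia targets, 2 were higher and 4 lower. The lower ones numbered 1 with library totals alone and 1 on TPM, 2 without Tfh replicate 5 or without Tfh replicate 6, and up to 6 when another library was left out. Stc2, a secreted glycoprotein, had the largest log2 fold change of the genes named here, at 0.517 ± 0.372 CPM in TLCP and 8.63 ± 4.40 CPM in Tfh (SD, n = 6; log2 fold change -4.03, SE 0.45, adjusted p = 2e-06). Kdm4b, a histone demethylase, was lower (log2 fold change -0.40, adjusted p = 0.00884). Bhlhe40, a transcriptional repressor active in T helper cells, was at 145 ± 65.4 CPM in TLCP and 58.3 ± 29.2 CPM in Tfh (SD, n = 6; log2 fold change 1.33, SE 0.41, adjusted p = 0.0287), and Car12, a membrane carbonic anhydrase, was also higher (log2 fold change 0.91, adjusted p = 0.0365). No gene of this list was called higher in mice 4 to 6 alone, without Tfh replicate 2 or without Tfh replicate 3. On TPM 1 was called higher. By DESeq2 the higher ones numbered 2 among these 24 and 4 over all 30 listed, some of which were below the count filter.

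Of 18 other enzymes and isozymes of glycolysis, 5 were higher and 4 lower. Adpgk, a glucokinase that uses ADP (log2 fold change 0.53, adjusted p = 0.00145), and Gpd1l, a glycerol phosphate dehydrogenase-like enzyme (log2 fold change 0.39, adjusted p = 0.00897), were higher. Ldhb was at 8.10 ± 2.53 CPM in TLCP and 16.4 ± 1.98 CPM in Tfh (SD, n = 6; log2 fold change -1.02, SE 0.18, adjusted p = 0.00023), and Bpgm, the bisphosphoglycerate mutase, was lower (log2 fold change -0.60, adjusted p = 0.00041). Of 12 genes that carry pyruvate into the mitochondrial cycle, 3 were lower and 0 higher by edgeR (0 higher at an unadjusted p under 0.05, and 0 by DESeq2 or limma voom). Among the lower were Pdha1, the catalytic subunit of pyruvate dehydrogenase (log2 fold change -0.49, adjusted p = 6e-06), and its kinase Pdk3 (log2 fold change -0.41, adjusted p = 0.00063). On TPM 0 of them were lower.

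Of 8 genes of the pentose phosphate pathway, 1 was lower, Rpia, a ribose phosphate isomerase (log2 fold change -0.44, adjusted p = 0.00023). Of 13 TSC and mTORC1 components, 2 were higher. These were Sesn1, a stress-induced mTORC1 inhibitor at 45.9 ± 4.70 CPM in TLCP and 24.5 ± 5.39 CPM in Tfh (SD, n = 6; log2 fold change 0.91, SE 0.12, adjusted p = 9.1e-06), and Mlst8, an mTORC1 subunit (log2 fold change 0.60, adjusted p = 0.00968). Sesn1 and the member Ddit4, which both restrain mTORC1, thus stood on opposite sides.

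Lag3 (log2 fold change 2.23) and Pdcd1 (-3.12) followed the labels. Cxcr5, which the TLCP label gives as present and Tfh cells are known to carry, was lower in TLCP (-1.62). Among 5 T cell markers, 4 were lower in TLCP (Cd3d -0.59, Trac -0.59, Cd4 -0.40 and Cd3g -0.38) while Cd3e was at -0.05, and their summed level was 2248 to 2745 CPM in TLCP and 3131 to 3427 CPM in Tfh. These shifts were as large as those of most glycolytic enzymes and smaller than those of Hif1a, Egln3, Bnip3 and Ddit4. Of 10 B cell markers 8 were higher in TLCP (summed 5087 to 24310 CPM against 1215 to 2275 CPM, most of it Ighm, which plasma cells also express; 780 to 3071 CPM against 316 to 921 CPM for the other 9), as were all 5 plasma cell markers tested (715 to 3324 CPM against 80.6 to 249 CPM), all 5 basophil and mast cell markers tested (26.1 to 96.2 CPM against 0.239 to 7.17 CPM) and 2 of 3 tested dendritic cell markers (7.57 to 20.7 CPM against 0.708 to 7.01 CPM). By edgeR 0 of 7 erythroid and platelet markers tested were called (0 at an unadjusted p under 0.05, and 0 by DESeq2 or limma voom; 48.3 to 141 CPM against 5.98 to 113 CPM), with Gp1bb at 0 in all libraries. The counts were also 0 for 3 macrophage markers (1 at an unadjusted p under 0.05, 0 by DESeq2 and 1 by limma voom; 29.9 to 113 CPM against 17.8 to 81.3 CPM) and 4 neutrophil markers (2 unadjusted, 0 by DESeq2 or limma voom; 5.96 to 53.0 CPM against 0.478 to 48.8 CPM). Of 3 CD8 and NK cell markers tested, Klrb1c was lower in TLCP (-1.46, adjusted p = 3.4e-05) and 0 were higher by edgeR (1 at an unadjusted p under 0.05, 1 by DESeq2 and 0 by limma voom; 9.85 to 21.0 CPM against 15.4 to 22.5 CPM).

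TLCP replicate 5 had the most immunoglobulin counts (4.64% of its assigned reads) and also the highest Hk2 and Slc2a3 of all 12 libraries. Without it and TLCP replicate 4, the next in immunoglobulin share at 3.75%, Slc2a3 was 0.74 and Hk2 0.93 on the log2 scale and both stayed called, Hif1a was -1.31, and Tpi1 was -0.78 and no longer passed. The part of B cell and other non-T RNA in each of these differences was not tested. Assigned reads per library ran from 6939770 to 12688306.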

How the data were processed

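Polyadenylated RNA of 12 sorted spleen CD4 T cell samples was sequenced. Tools listed in the submitters' processing notes are STAR 2.7.1a, DESeq2 1.30.1 and bcl2fastq 2.20, with GRCm38 as the build and no annotation release. The deposited count files hold raw read counts per gene, from which sense-strand counts were taken (antisense reads came to 2.83% to 4.19%). Classes that name no gene held 44.9% to 56.4% of reads, 16.1% to 24.3% of all being multimapping, and were left out. The rRNA-like gene CT010467.1 took 12.9% to 30.9% of assigned counts. The authors' deposited table gives their own log2 fold changes and p-values, in which 15 members were lower and 2 higher, and a normalized signal from which whole reads were recovered for 100% of values (tolerance 0.01), and the count test on those reads called 3983 genes. Deposited TPM were used for levels between genes and in log2(TPM + 1) fits.

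Counts were fitted in R 4.3.3 with edgeR 4.0.16 (TMM, filterByExpr with minimum count 10, robust quasi-likelihood test, 2-sided) over 12015 genes and adjusted by Benjamini and Hochberg, threshold 0.05. Log2 fold changes are TLCP minus Tfh, SE is the absolute value divided by the square root of F, and CPM are TMM-scaled. The fit was tested on 3 simulated data sets with 200 genes changed in each. It recovered 78.6% of 2-fold and 97.6% of 4-fold changes, and 5.06% of its calls were false. The simulated libraries were independent, without pairs or sets of mice. Ratios of 2 genes were compared by exact permutation over the 12 libraries, without pairing. Alternatives were DESeq2 1.42.0, limma 3.58.1, other scalings, filters and strands, each library left out and either set of mice alone; leaving out the 2 TLCP libraries richest in immunoglobulin, and the recovered reads, were added after seeing the data. Aldoa had 2 rows, and the one with more counts was used. All members are named; from the other lists the rule names up to 2 called genes in each direction, those with the smallest p. Ldhb and Pdk3 also stand in the ratios.

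Same-numbered libraries of both populations deviated together (correlations 0.16 to 0.362 for 6 of 6 numbers). Of 12 libraries, 10 correlated best with the library of their own number. The highest correlation between unequal numbers was 0.232, above the lowest of equal numbers, so the data do not settle every pair. The series describes 6 mice. Equal numbers were treated as pairs in the counts of pairs and in the replicate block, which was an alternative. The main edgeR fit had no block, so its p-values are unpaired. With the block 2292 genes were higher and 2161 lower in TLCP, against 2014 and 1969 without it. The members and lists were chosen with earlier results of these data known. P-values measure the spread between these samples. Promoter windows are from RefSeq (GRCm38.p6; 30 of 32 members had one) and transcripts from GENCODE M21.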

Additional observations from a re-analysis of the deposited data

Results flagged for a closer look

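Among 83 groups of 6 libraries looked at (member levels and gene ratios), 5 held a library far from the other 5, where chance flags about 1 in 20 groups. Hk2 in TLCP replicate 5 was at 18.9 CPM, with the others at 8.48 to 11.2 CPM, and the log2 ratio of Slc2a3 to Slc2a1 (TPM scale) in the same library was 1.17, with the others at 0.33 to 0.63. Ddit4 in TLCP replicate 4 was at 72.1 CPM, above the others at 42.9 to 51.4 CPM. Pfkm in TLCP replicate 6 was at 8.40 CPM, below the others at 11.3 to 12.3 CPM. Pfkfb3 in Tfh replicate 3 was at 49.9 CPM, below the others at 55.8 to 58.8 CPM. TLCP replicates 4 and 5 were also the libraries with the largest immunoglobulin shares, and the part of that in these values was not tested.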

How the results depend on the processing

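Alternatives left the 4 largest falls (Hif1a, Egln3, Bnip3, Ddit4) and the rise of Slc2a3 called each time they could be fitted, and Hk2 in all but mice 4 to 6 alone. The calls of modest size depend on scaling. Members lower numbered 8 with library totals alone and 5 on log2(TPM + 0.1) and on log2(TPM + 1). Members higher numbered 4 in mice 1 to 3 and 1 in mice 4 to 6. Genes of the other pathway lists that were higher numbered 16 with totals, 3 in mice 4 to 6 and 5 without the 2 TLCP libraries richest in immunoglobulin, an alternative chosen after seeing the data, and the lower ones 6 with totals, 3 and 4 on TPM with the smaller and larger pseudocount, and 9 in mice 1 to 3. With 1 library left out, members lower ranged from 14 to 16, members higher stayed at 2, the other pathway genes ranged from 6 (without Tfh replicate 3) to 10 higher and from 11 to 20 lower, and all genes called from 3489 to 4008.

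With the replicate block, which pairs the mice, the log2 ratio of Pfkp to Pfkl (0.14) passed and Eno1 passed, and no other member or ratio changed its call. Counts of both strands gave a Bnip3l to Bnip3 ratio of 0.75 that no longer passed; the cause was not tested. Leaving out 1 library gave -0.68 to -0.42 for Aldoc to Aldoa, and -0.20 to 0.16 for Slc16a3 to Slc16a1, which changed sign.

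Other members that changed sign had small differences that did not pass, except Pfkp and Gapdh. With library totals alone the log2 fold changes were 0.034 for Slc16a1, 0.016 for Gpi1, 0.072 for Pfkfb3, 0.16 for Pdk1 and 0.13 for Ankrd37. On log2(TPM + 0.1) and log2(TPM + 1) they were 0.17 and 0.16 for Slc16a1, 0.16 and 0.092 for Slc16a3, 0.13 and 0.13 for Gpi1, 0.051 and 0.050 for Pfkp, 0.022 and 0.019 for Pfkm, 0.19 and 0.18 for Pfkfb3, 0.0058 and 0.0055 for Gapdh, 0.29 and 0.28 for Pdk1 and 0.31 and 0.25 for Ankrd37. Mice 1 to 3 alone gave 0.35 for Slc16a3 and 0.046 for Ankrd37, and mice 4 to 6 alone gave -0.098 for Ldha. For Pdk1 the value was 0.0033 by DESeq2, 0.0052 with its size factors, 0.0069 with a stricter filter, 0.0047 without ribosomal RNA-like and immunoglobulin genes and 0.071 without the 2 libraries named above. Ankrd37 was 0.0010 with the replicate block and 0.061 with both strands. Leaving out 1 library gave -0.017 to 0.11 for Ldha, -0.055 to 0.032 for Pdk1, -0.15 to 0.068 for Ankrd37 and -0.048 to 0.16 for Mxi1. The low counts of Bnip3, Hk2, Aldoc, Pgk1 and Pgam1 limit their precision.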
